A study of Zea mays with 6 samples.

Results

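The gamma, beta and delta zeins of maize endosperm were described in nacRNAi and wild-type kernels at the transcript level. Their genes were taken by 4 known identifiers and by every gene description that names a gamma or delta zein, which gave 6 genes of the 39179 listed: 3 gamma, 1 beta and 2 delta. Endosperm of developing maize kernels was sampled at 20 days after pollination. The nacRNAi line (Ni4) is a sibling line labelled as inbred B73 that, by its name, carries an RNA interference construct against NAC genes, and the wild type is inbred B73. Each line has 3 libraries, all labelled endosperm at 20 days, and no treatment is given for either. The labels give neither the promoter that drives the construct nor the number of transgenic events behind Ni4. Whether replicate libraries of 1 line stem from different plants or ears is not stated, so p-values here reflect only how far these libraries vary, which may be technical variation.

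Zeins are the prolamin storage proteins of the maize kernel, made on the rough endoplasmic reticulum of starchy endosperm cells and packed into protein bodies inside it. Cysteine-rich gamma zeins and the beta zein form the outer layer of a protein body through disulfide bonds, while alpha and delta zeins fill its core. The beta and delta zeins are also rich in methionine, so these small classes carry much of the sulfur of a kernel whose main storage proteins, the alpha zeins, hold little.

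Total gene counts were 69670876, 60466236 and 59084750 in the nacRNAi libraries and 64603196, 59596459 and 55812999 in the wild-type libraries. Levels are given as CPM, counts scaled to library size by edgeR's TMM factors. Of 22259 tested genes 47.3% passed an adjusted p of 0.05, with 23.2% higher and 24% lower in nacRNAi. When libraries were scaled by their plain totals instead, the median gene was higher in nacRNAi by 0.52 on the log2 scale and 84.9% of the called genes were higher. Values on that scale are given as values with library totals, for all 6 zein genes and for other genes where shown. Starchy endosperm markers were present in every library. The summed level of 5 of them was 14497 to 15827 CPM in nacRNAi and 10025 to 12657 CPM in wild type. Most of this sum was Sucrose synthase 1. With TMM factors 3 of the 5 were called lower and 1, Sucrose synthase 1, higher. In whole endosperm, fewer cells of a type and less RNA per cell cannot be told apart.

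All 6 genes had fewer transcripts in nacRNAi endosperm than in wild type. All 6 were tested and 6 passed as lower, where 24% of tested genes did (edgeR quasi-likelihood test, Benjamini-Hochberg adjusted over all genes). For 4 of them the fall was at least 2-fold, against 8.94% of tested genes. Their libraries did not overlap between the lines in 6 of 6 cases. Of all tested genes 59.2% had no overlap, and 29.5% were lower without overlap. With library totals 5 of the 6 were called as lower, where 59.5% of tested genes were called and 9% were lower. The median log2 fold change was -1.79 over the 6 genes and -0.00 over all tested genes, and with library totals it was -1.28 and 0.52. The single genes ranged from -5.28 for the 16-kDa gamma zein to -0.67 for the 27-kDa gamma zein. Each exact two-sided permutation test gave p = 0.1, the smallest that 3 against 3 libraries allow.

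**Figure D1:**
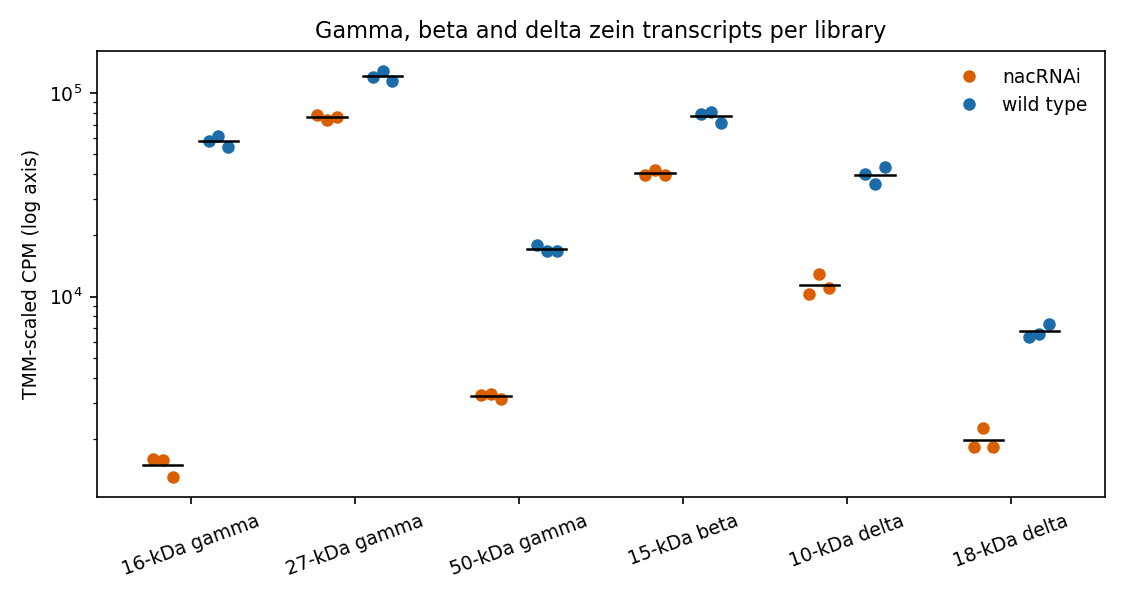
TMM-scaled CPM (log axis) of the 6 zein genes in each library, with nacRNAi to the left of wild type for each gene. Points are libraries and lines are means of 3. No gene's lines overlap, and the gap is widest for the 16-kDa gamma zein, at 1302 to 1597 CPM in nacRNAi and 54329 to 61205 CPM in wild type.

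The 16-kDa gamma zein, a cysteine-rich gamma zein of the protein body surface, showed the largest change of the 6 genes. Its gene is Zm00001d005793, which the files describe as Zein-beta, on chromosome 2 from 188849023 to 188849574 on the plus strand. It had 1597, 1581 and 1302 CPM in the nacRNAi libraries, against 58113, 61205 and 54329 CPM in the wild-type libraries. Every nacRNAi library lay far below every wild-type library, and within each line replicate 3 was the lowest. The means were 1494 ± 166 CPM in nacRNAi and 57882 ± 3444 CPM in wild type (SD, n = 3 each), a 38.8-fold lower level. This is a log2 fold change of -5.28 (SE 0.13, edgeR adjusted p = 5.39e-07), or -4.76 with library totals. By count the gene ranked 44th, 44th and 53rd among all genes in the nacRNAi libraries and 3rd in each wild-type library. Of 79 tested genes with a wild-type mean of at least 1000 CPM, 60 were lower and 3 higher, and 1 had a more negative log2 fold change than the 16-kDa gamma zein. That gene, named after its value was seen, encodes a Glucose-1-phosphate adenylyltransferase (Zm00001d050032), an enzyme of starch synthesis, at -7.75. The 79 genes were picked by their wild-type level alone, which favours genes that fell. Among all tested genes, 148 had a more negative log2 fold change than the 16-kDa gamma zein.

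The 27-kDa gamma zein, the cysteine-rich protein with which protein bodies begin to form, was the most abundant transcript in all 6 libraries and changed the least of the 6. Its gene, Zm00001d020592, is described as Glutelin-2 and lies on chromosome 7 from 123982344 to 123983015 on the plus strand. It had 78286, 73647 and 76227 CPM in the nacRNAi libraries, against 119226, 128155 and 114968 CPM in the wild-type libraries. The lines did not overlap, and all 3 nacRNAi libraries were lower. The means were 76054 ± 2324 CPM in nacRNAi and 120783 ± 6729.6 CPM in wild type (SD, n = 3 each), 1.59-fold lower. This is a log2 fold change of -0.67 (SE 0.09, edgeR adjusted p = 0.000583). With library totals the change was -0.15 (SE 0.09) and did not pass (edgeR adjusted p = 0.166). On that scale the gene held 9.33%, 8.71% and 9.25% of all counts in the nacRNAi libraries and 9.91%, 10.3% and 10.03% in the wild-type libraries. Among the 79 genes above 1000 CPM in wild type, 42 had a more negative log2 fold change. Over all tested genes, without that choice by wild-type level, 4151 did.

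The 50-kDa gamma zein, a longer and less abundant gamma zein, fell more than its neighbour on the chromosome. Its gene, Zm00001d020591, lies on chromosome 7 from 123954263 to 123955189 on the plus strand. Between its end and the start of the 27-kDa gene lie 27154 bases, with 0 listed genes starting between them. The 50-kDa gene had 3280, 3332 and 3154 CPM in the nacRNAi libraries, against 17971, 16701 and 16723 CPM in the wild-type libraries. Libraries of a line lay close together and the lines were far apart. Its level was 5.26-fold lower, with a log2 fold change of -2.40 (SE 0.08, edgeR adjusted p = 1.52e-06), or -1.88 with library totals. The count of the 27-kDa gene over that of the 50-kDa gene was 23.9, 22.1 and 24.2 in the nacRNAi libraries and 6.63, 7.67 and 6.87 in the wild-type libraries. All nacRNAi ratios were above all wild-type ratios (exact two-sided permutation p = 0.1), a comparison within libraries that needs no scaling factor. The gene listed after the 27-kDa gene, an AT-rich interactive domain-containing protein 4 gene (Zm00001d020593), was higher in nacRNAi (log2 fold change 0.56, edgeR adjusted p = 0.00117).

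Gamma zeins together held overlapping shares of the zein counts in the lines, while the make-up of the class differed. The 3 gamma genes held 43.6%, 40.8% and 44.5% of the zein counts in the nacRNAi libraries and 43.7%, 44.9% and 45.9% in the wild-type libraries. The lines overlapped, and the means of 43.0% ± 1.93 in nacRNAi and 44.8% ± 1.12 in wild type had an exact two-sided permutation p of 0.2 (SD, n = 3 each). Within the gamma counts the 16-kDa gene held 1.85% ± 0.21 in nacRNAi and 29.6% ± 0.30 in wild type. The 27-kDa gene held 94.1% ± 0.365 of the gamma counts in nacRNAi and 61.7% ± 0.58 in wild type. The 50-kDa gene held 4.03% ± 0.18 in nacRNAi and 8.77% ± 0.58 in wild type. None of these shares overlapped between the lines. The count of the 16-kDa gene over that of the 27-kDa gene was 0.0204, 0.0215 and 0.0171 in the nacRNAi libraries and 0.487, 0.478 and 0.473 in the wild-type libraries. The ratio was 24.4-fold lower in nacRNAi without overlap (exact two-sided permutation p = 0.1). The 16- and 27-kDa gamma genes are related in sequence, and how reads matching more than 1 gene were counted is not given in the sources used here.

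The beta zein of 15 kDa, a cysteine- and methionine-rich protein of the outer protein body, was second by count in every library. Its gene, Zm00001d035760, lies on chromosome 6 from 46129120 to 46129656 on the minus strand. It had 39618, 41851 and 39592 CPM in the nacRNAi libraries, against 79169.8, 80789 and 71337 CPM in the wild-type libraries. The nacRNAi libraries were all lower and close to each other. The means were 40354 ± 1297 CPM in nacRNAi and 77099 ± 5055 CPM in wild type (SD, n = 3 each), 1.91-fold lower. This is a log2 fold change of -0.93 (SE 0.09, edgeR adjusted p = 0.000119). With library totals it was -0.42, smaller but still called (edgeR adjusted p = 0.0025). Of the other 5 genes, the 15-kDa beta gene lay nearest in pattern to the 27-kDa gamma gene, with a root mean square difference of 0.15 log2 units over the 6 libraries after each gene was centred on its own mean. A small value by this measure requires a similar fold change.

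Delta zeins, the methionine-rich core proteins, both fell, by similar folds. The 10-kDa delta gene (Zm00001d045937, chromosome 9, 47916398 to 47916850, plus strand) had 10277, 12856 and 11063 CPM in the nacRNAi libraries, against 39827, 35789 and 43241 CPM in the wild-type libraries. The 18-kDa delta gene (Zm00001d037436, chromosome 6, 125302098 to 125302733, plus strand) had 1829, 2269 and 1815 CPM in the nacRNAi libraries, against 6357, 6574 and 7353 CPM in the wild-type libraries. For both genes the lines were separate, replicate 2 was the highest in nacRNAi and replicate 3 the highest in wild type. The 10-kDa gene was 3.48-fold lower, with a log2 fold change of -1.80 (SE 0.12, edgeR adjusted p = 2.3e-05). The 18-kDa gene was 3.43-fold lower, with a log2 fold change of -1.78 (SE 0.11, edgeR adjusted p = 1.99e-05). With library totals these were -1.29 and -1.27, both called. The count of the 10-kDa gene over that of the 18-kDa gene was 5.62, 5.66 and 6.09 in nacRNAi and 6.26, 5.44 and 5.88 in wild type. These ratios overlapped, with a log2 difference of -0.02 between the lines and a range of -0.16 to 0.16 over all pairs of libraries (exact two-sided permutation p = 0.9).

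**Figure D2:**
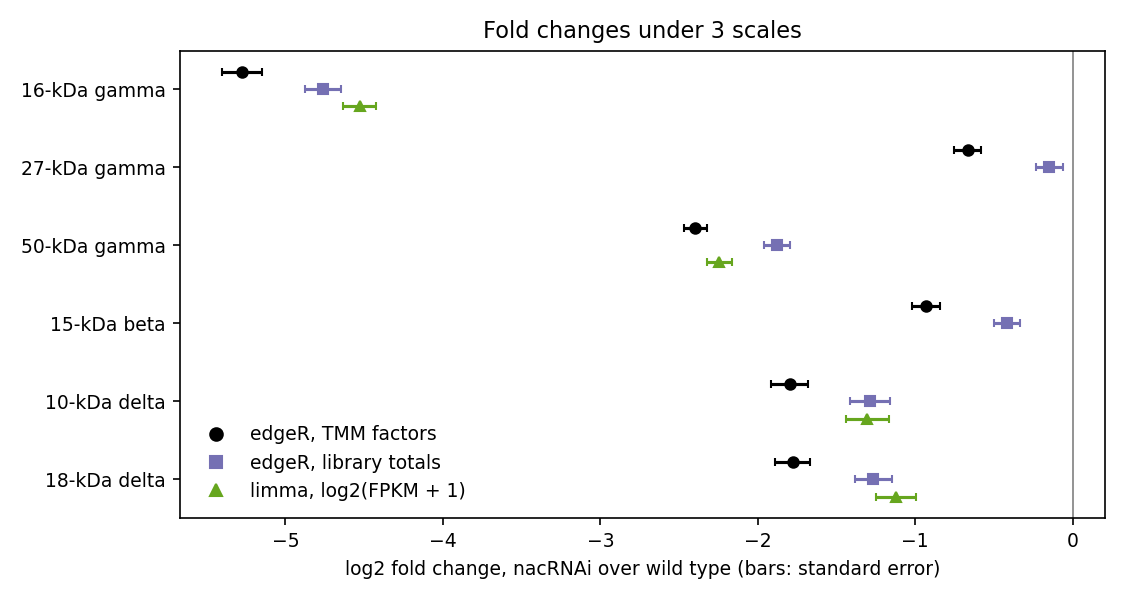
Log2 fold change of nacRNAi over wild type for each gene, with standard errors, from edgeR with TMM factors, edgeR with library totals and limma on log2(FPKM + 1). The 27-kDa gamma gene is at -0.67 with TMM factors and at -0.15 with library totals, while the 16-kDa gamma gene stays at -4.53 or below on all 3; the 27-kDa gamma and 15-kDa beta genes have no FPKM fit because they are listed at 0 FPKM in some or all libraries.

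Levels of different genes were compared per kilobase of listed gene length, which for these genes is a multiple of 3 in 6 of 6 cases. In nacRNAi the 27-kDa gamma zein came first, at 113175 ± 3459 CPM per kilobase, before the 15-kDa beta zein at 75146 ± 2415 and the 10-kDa delta zein at 25162 ± 2918 (SD, n = 3). The 50-kDa gamma zein followed at 3512 ± 98.3, the 18-kDa delta zein at 3099 ± 406 and the 16-kDa gamma zein at 2706 ± 300.4 CPM per kilobase. Of these 3, the 50-kDa and 18-kDa libraries overlapped and so did the 18-kDa and 16-kDa libraries, while the 50-kDa libraries were all above the 16-kDa ones. In wild type the 27-kDa gamma zein had 179737 ± 10014 CPM per kilobase, the 15-kDa beta zein 143573 ± 9414 and the 16-kDa gamma zein 104859 ± 6238 (SD, n = 3). The 10-kDa delta zein had 87459.7 ± 8235 CPM per kilobase in wild type, the 50-kDa gamma zein 18481 ± 784 and the 18-kDa delta zein 10631 ± 823. No neighbours in the wild-type order overlapped. The first and second places were the same in both lines. The 16-kDa gamma zein was among the last 3 in nacRNAi and the third in wild type.

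**Figure D3:**
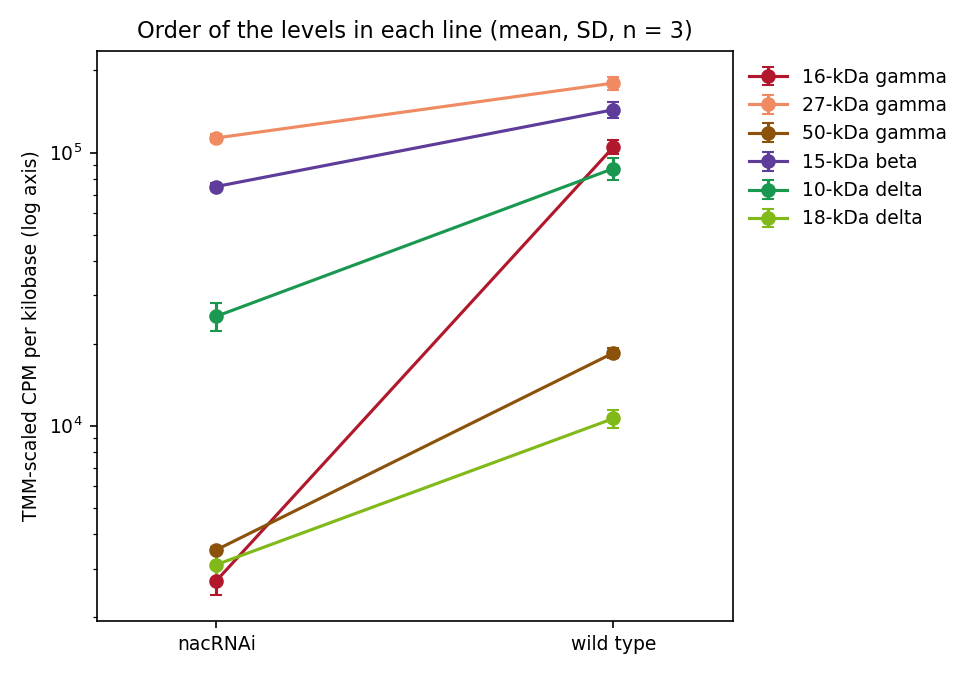
Mean TMM-scaled CPM per kilobase of listed gene length (log axis, SD, n = 3) of each gene in nacRNAi, left, and wild type, right. The line of the 16-kDa gamma zein crosses those of the 10-kDa delta, 50-kDa gamma and 18-kDa delta zeins, with 2706 in nacRNAi and 104859 in wild type, while the 10- and 18-kDa delta lines run nearly parallel.

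The 6 genes together held 16.1% ± 0.07 of all counts in nacRNAi and 26.7% ± 0.16 in wild type (SD, n = 3 each), with no overlap (exact two-sided permutation p = 0.1). Counting error was small beside this spread, with a 95% Wilson interval of 16.06% to 16.08% in nacRNAi replicate 1. Together with 12 other genes described as zeins the shares were 22.5% ± 0.44 in nacRNAi and 36.5% ± 1.00 in wild type, a difference of -14.0 percentage points. The 6 genes carried 75.7% of that difference, and the 16-kDa gamma gene alone 33.3%. The 10-kDa delta gene carried 14.0%, the 15-kDa beta gene 11.5%, the 50-kDa gamma gene 7.46%, the 27-kDa gamma gene 7.08% and the 18-kDa delta gene 2.37%. The other 12 zein genes carried 24.3%. These parts depend on which genes count as zeins. They also depend on how reads matching more than 1 alpha-zein gene were counted, which is not given. With floury2, floury4 and Kafirin PSKR2 Precursor added, alpha-zein genes whose descriptions lack the word and a choice made after the data were seen, the shares were 23.6% ± 0.51 in nacRNAi and 39.7% ± 1.41 in wild type (SD, n = 3 each). Of that difference of -16.1 points the 6 genes carried 65.8%, the 16-kDa gamma gene 28.9% and all other zein genes 34.2%.

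Within the zein counts, the genes that fell least took larger shares in nacRNAi. This follows by arithmetic from the fold changes, which the shares restate without a scaling factor. They depend on the zein total, with the limits given above. The 27-kDa gamma gene held 40.5% ± 1.97 of the zein counts in nacRNAi and 27.7% ± 0.89 in wild type, and the 15-kDa beta gene 21.5% ± 0.60 in nacRNAi and 17.6% ± 0.05 in wild type (SD, n = 3 each). The 16-kDa gamma gene held 0.792% ± 0.06 in nacRNAi and 13.2% ± 0.22 in wild type. The 50-kDa gamma gene held 1.73% ± 0.01 in nacRNAi and 3.93% ± 0.25 in wild type, and the delta genes together 7.10% ± 0.76 in nacRNAi and 10.7% ± 1.65 in wild type. Each of these shares was separate between the lines (exact two-sided permutation p = 0.1, and for the single genes 0.1 after adjustment over the 6). All 6 together held 71.5% ± 1.69 of the zein counts in nacRNAi and 73.2% ± 2.44 in wild type, with overlap (exact two-sided permutation p = 0.5). With the 3 further alpha-zein genes added they held 68.2% ± 1.78 in nacRNAi and 67.3% ± 2.82 in wild type, again with overlap and with the sign of the difference turned (exact two-sided permutation p = 0.6). Of the 15 ratios between 2 of the 6 genes, 14 did not overlap between the lines (each exact two-sided permutation p = 0.1, adjusted 0.107). Such separation was common, at 75.8% of 153 ratios among all zein genes and 74.2% of 66 ratios among the other zeins. The ratio that overlapped was that of the 2 delta genes.

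**Figure D4:**
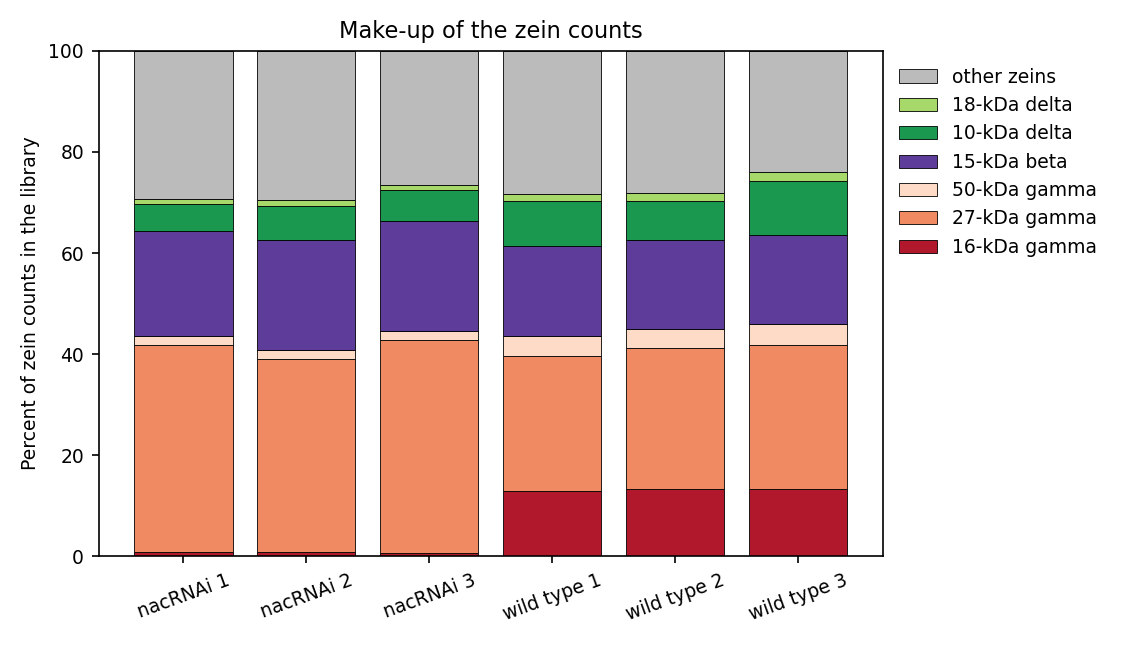
Percent of all zein counts held by each gene in each library, stacked to 100, with the 12 other zein genes in grey and nacRNAi libraries to the left. The 16-kDa gamma gene holds 0.719% to 0.837% in nacRNAi and 13.0% to 13.4% in wild type, and the 27-kDa gamma gene is wider in every nacRNAi library.

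**Figure D5:**
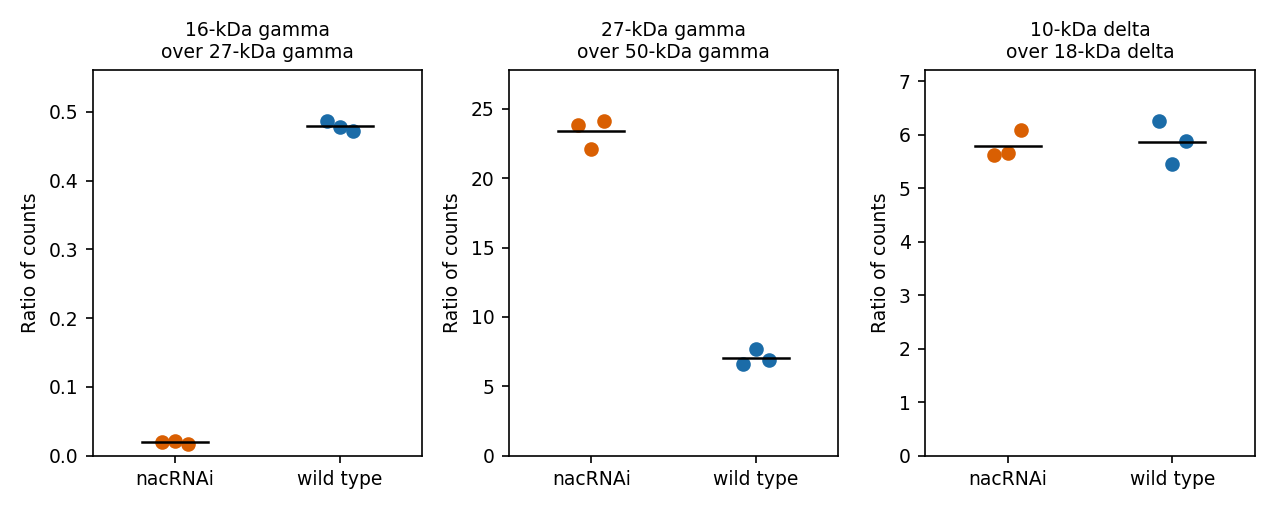
Ratios of counts within a library, with nacRNAi left of wild type, points for libraries and lines for means of 3. The 16-kDa over 27-kDa gamma ratio is at most 0.0215 in nacRNAi and at least 0.473 in wild type, the 27-kDa over 50-kDa ratio at least 22.1 in nacRNAi and at most 7.67 in wild type, and the delta ratios lie at 5.62 to 6.09 in nacRNAi and 5.44 to 6.26 in wild type.

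The deposited FPKM values, adjusted for length and depth by the authors, hold gaps for the most abundant genes. The 27-kDa gamma gene is listed at 0 FPKM in all 6 libraries, although it had between 5269540 and 6497800 counts. The 15-kDa beta gene is listed at 0 in wild-type replicates 1 and 2, and at 84653, 87029 and 85430.1 FPKM in the nacRNAi libraries and 99367 FPKM in wild-type replicate 3. In all, 11 genes are listed at 0 FPKM in a library where they had over 1000 counts. For the 4 zein genes with complete values, FPKM gave the same direction. The 16-kDa gamma gene stood at 4276, 3942 and 3410.0 FPKM in nacRNAi and at 86389, 87262 and 93966 FPKM in wild type, 23.0-fold lower (limma on log2(FPKM + 1), log2 fold change -4.53, adjusted p = 8.37e-06). The other folds in FPKM were 4.75 lower for the 50-kDa gamma gene, 2.48 lower for the 10-kDa delta gene and 2.18 lower for the 18-kDa delta gene. As FPKM is scaled for library size, its nearest counterparts are folds in percent of all counts, not those with TMM factors. These were 27.1 lower for the 16-kDa gamma gene and 3.68 lower for the 50-kDa gamma gene. For the 10-kDa and 18-kDa delta genes they were 2.44 and 2.40 lower. In nacRNAi the mean FPKM was 3876 ± 437 for the 16-kDa gamma gene, 3120.3 ± 316 for the 18-kDa delta gene and 2764 ± 48.2 for the 50-kDa gamma gene (SD, n = 3). This reverses the order that counts per kilobase gave for these 3 genes.

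By annotation, 4 of the 6 genes, all but the delta pair, carry the GO term for nutrient reservoir activity, and 2 carry no GO term. They lie on 4 chromosomes and none overlaps another listed gene. The 15-kDa beta and 18-kDa delta genes are both on chromosome 6, 79172441 bases apart.

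Of the 12 other genes described as zeins, mostly alpha zeins of the protein body core, 11 fell and the other did not pass, where 24% of all tested genes were lower. With library totals 8 were lower, where 9% of all tested genes were. The median log2 fold change was -1.28, or -0.76 with library totals. Zein-alpha 19D1 (Zm00001d030855) had 864, 908 and 734 CPM in the nacRNAi libraries and 4783, 5102 and 4649 CPM in the wild-type libraries, the lines being well apart (log2 fold change -2.54, or -2.02 with library totals). The alpha-zein genes Zein-alpha PMS1, Zein-alpha A30 and zein polypeptidesL2a fell by 1.43, 1.58 and 1.79 on the log2 scale. With library totals their log2 fold changes were -0.91, -1.06 and -1.27. Alpha-zein copies can be so alike that counting splits their reads, which makes these single values uncertain. If such reads were dropped, the summed alpha-zein counts and the shares of zein counts are uncertain too.

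Of 6 known regulators of storage protein genes found in the files, 2 fell and the other 4 did not pass, beside 24% of all tested genes lower and 47.3% called. With library totals 2 were higher and 2 lower, where 11233 of 22259 tested genes were higher and 9% lower. The median log2 fold change was -0.28, or 0.24 with library totals, beside -0.00 and 0.52 over all tested genes. Opaque2, the bZIP activator of zein genes (Zm00001d018971), had 344, 365 and 323 CPM in the nacRNAi libraries and 591, 848 and 576 CPM in the wild-type libraries. All nacRNAi libraries were lower, and the wild-type libraries were spread (log2 fold change -0.96, edgeR adjusted p = 0.00229). With library totals its log2 fold change was -0.44 (edgeR adjusted p = 0.0175), and on log2(FPKM + 1) it was -0.57 (limma adjusted p = 0.0425). NAC130, an endosperm NAC factor (Zm00001d008403), fell by 2.44 on the log2 scale, or by 1.92 with library totals. NAC128 (Zm00001d040189) was at -0.18 (edgeR adjusted p = 0.245). It turned to 0.35 with library totals (edgeR adjusted p = 0.0168) and to 0.54 on log2(FPKM + 1) (limma adjusted p = 0.00419), passing as higher in both. The files describe these NAC genes in other words, and their names rest on known identifiers. Opaque2 heterodimerizing protein 1 was at -0.38, naked endosperm1 at 0.03 and naked endosperm2 at -0.03, none of which passed. With library totals Opaque2 heterodimerizing protein 1 was at 0.13 and naked endosperm2 at 0.49, neither passing, and naked endosperm1 at 0.55 (edgeR adjusted p = 0.00177).

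Genes of endoplasmic reticulum folding, which handle the disulfide-bonded gamma and beta zeins, included genes that rose and genes that fell. The 37 listed were matched by description and include a protein disulfide-isomerase described as chloroplastic, which was not tested. Of the 37, 26 were tested, 6 rose and 9 fell, so 57.7% were called beside 47.3% of all tested genes. With library totals 17 were higher and 4 lower, or 80.8% called beside 59.5%. The median log2 fold change was -0.12, or 0.39 with library totals, beside -0.00 and 0.52 over all tested genes. Endoplasmic oxidoreductin-1, the oxidase that recharges protein disulfide isomerase, had 148, 146 and 147 CPM in nacRNAi and 65.0, 76.0 and 60.5 CPM in wild type. The nacRNAi libraries were almost equal and all higher (log2 fold change 1.13, or 1.65 with library totals). Protein disulfide isomerase8 fell by 1.18 on the log2 scale, or by 0.66 with library totals. Calreticulin-2, a chaperone of the same compartment, fell by 1.42, or by 0.91 with library totals. Luminal-binding protein 2 (Zm00001d025565), a BiP chaperone gene of low level, fell by 4.44 on the log2 scale, with at most 0.599 CPM in nacRNAi and at least 5.03 CPM in wild type. The size of this fall depended on the setting, at -5.32 without nacRNAi replicate 3 and -1.18 on log2(FPKM + 1). Genes with the same description did not share it. Zm00001d026467, named after its value was seen, rose by 2.43 (edgeR adjusted p = 0.0169), and Zm00001d014993, likewise, was at -0.13 (edgeR adjusted p = 0.17).

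Of 30 listed genes that make the sulfur amino acids of these proteins, 22 were tested, 9 rose and 4 fell. That is 59.1% called beside 47.3% of all tested genes, and with library totals 16 were higher and 3 lower, or 86.4% called beside 59.5%. The median log2 fold change was 0.07, or 0.59 with library totals, beside -0.00 and 0.52 over all tested genes. A homocysteine methyltransferase gene of methionine synthesis (Zm00001d013644) had 375, 382 and 409 CPM in the nacRNAi libraries and 119.7, 132 and 129 CPM in the wild-type libraries, all nacRNAi libraries being higher (log2 fold change 1.62, or 2.13 with library totals). A second such gene (Zm00001d031128) rose by 0.86 on the log2 scale, or 1.38 with library totals. ATP sulfurylase1, which activates sulfate, rose by 0.90, or 1.42 with library totals. Cystathionine beta-lyase, which acts earlier in methionine synthesis, fell, with 38.7 ± 1.56 CPM in nacRNAi and 88.5 ± 4.57 CPM in wild type (SD, n = 3 each). Its log2 fold change was -1.20, or -0.68 with library totals.

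Genes with the most similar pattern were ranked by the root mean square difference of centred log2 CPM over the 6 libraries, among 11582 genes with a description and a mean of at least 5 CPM. The nearest to the 16-kDa gamma gene were Phospholipase C (Zm00001d003671) at 0.12 log2 units, Beta-glucosidase 44 at 0.21, Aquaporin PIP2-2 at 0.31, Senescence-inducible chloroplast stay-green protein 1 at 0.32 and a molybdopterin-binding aldehyde oxidase/xanthine dehydrogenase gene at 0.39. A small value requires a similar fold change, so these genes are in large part those of like fold. Phospholipase C had a log2 fold change of -5.50, beside -5.28 for the 16-kDa gamma gene. Shared regulation was not tested. The levels of these genes were far lower, with 0.303 ± 0.05 CPM in nacRNAi and 13.8 ± 1.12 CPM in wild type for Phospholipase C. No other zein was so near. Within the 6 the closest was the 50-kDa gamma gene at 1.45 log2 units. Its log2 fold change was -2.40, beside -2.54 for Zein-alpha 19D1, which is not among the 6. The nearest to the 27-kDa gamma gene were Peroxisomal membrane protein 11C and an NADH dehydrogenase beta subcomplex subunit, both at 0.03 log2 units. Soluble diacylglycerol acyltransferase and enoyl-CoA hydratase1 were also at 0.03, and ubiquitin-conjugating enzyme E2 N at 0.04. On log2(FPKM + 1) the first 3 of these genes turned to 0.06, 0.42 and 0.10, while the 27-kDa gene has no value there.

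Markers of other kernel parts were measured beside the zeins. Of all tested genes 24% were lower and 23.2% higher with TMM factors. With library totals 9% were lower and 11233 of 22259 were higher. The summed level of 7 oleosin genes, which mark embryo and aleurone, was 804 to 1074 CPM in nacRNAi and 1274 to 1349 CPM in wild type, with 6 lower and 1 higher, or 3 lower and 1 higher with library totals. Of 4 genes described as aleurone genes 3 were tested and 2 were lower, though all 3 were higher with library totals, with sums of 102 to 109 CPM in nacRNAi and 118 to 136 CPM in wild type. Basal transfer layer genes summed to 0.599 to 10.95 CPM in nacRNAi and 1.04 to 11.4 CPM in wild type. Of 4 embryo surrounding region genes, 0 were tested and 1 was at 0 in every library. Green tissue genes summed to 35.2 to 41.8 CPM in nacRNAi and 35.5 to 43.2 CPM in wild type. The part of these markers in the zein differences was not tested. Of the 5 starchy endosperm markers 3 were lower and 1 higher, or 2 and 2 with library totals. The one higher with TMM factors, Sucrose synthase 1, made up most of their sum, with 12395 CPM in nacRNAi and 7059.5 CPM in wild type.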

How the data were processed

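Per the labels' protocols, endosperm RNA was isolated with TRIzol and sequenced from Truseq mRNA libraries, with no word on strand. The authors deposited raw read counts per gene and, separately, FPKM values per gene, which are scaled for length and library size, per the file headers. Not given in the sources used here: aligner, counter, annotation and genome build. Coordinates are those of the files, of an unnamed build. All lists, genes and tests were chosen with earlier results of these data known. A reference table of another assembly matched 0 identifiers, and no sequences were used here.

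Counts were filtered with filterByExpr, scaled by TMM (factors 1.19, 1.18 and 1.21 in nacRNAi, 0.831, 0.806 and 0.872 in wild type) and tested over all genes with the robust quasi-likelihood test of edgeR 4.0.16 in R 4.3.3, with line as the only term. An SE was taken as |log2 fold change| / √F, with F from edgeR, and is approximate. Shares and ratios were compared by exact two-sided permutation over libraries in Python 3.11.15. Wilson intervals cover counting error only. Replicates differed beyond sampling noise (chi-square per degree of freedom 25.8 to 49.9). On data simulated for this contrast, edgeR recovered 100% of 100 genes at a log2 fold change of 1, with 8 false calls among 22367 genes. The simulation gave every gene the same dispersion and few genes a change, in equal parts up and down. It held no shift between the lines like that seen here, so it does not give error rates for the real data.

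Zein counts are those of the 6 genes and of 12 others described as zeins. The genes named are the 6, all regulators found, the 4 genes of smallest adjusted p in each other list, and the 5 nearest in pattern to each of the 16- and 27-kDa gamma genes. Phosphatase, S-adenosylmethionine synthase and similar matches were dropped from the lists after the descriptions were read. Prolamin-box binding factor, bZIP22, Opaque2 heterodimerizing protein 2 and opaque11 were not matched by description and were not analysed here. Alternatives were DESeq2 size factors, library totals, TMM without zeins, no filter, at least 1 CPM in 3 libraries, DESeq2 1.42.0, limma 3.58.1 on log2(FPKM + 1) and log2(FPKM + 0.1), a replicate block and leaving out each library. Genes listed at 0 FPKM with over 1000 counts were left out of the limma fits.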

Additional observations from a re-analysis of the deposited data

How the results depend on the processing

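With DESeq2 size factors, TMM without zeins, other filters, DESeq2 or the replicate block, all 6 zein genes stayed called as lower. With library totals 5 were called, the 27-kDa gamma gene being at -0.15 (edgeR adjusted p = 0.166). The limma fits covered 4 of the 6, all called as lower. Of 25471 genes, 14411 were called on log2(FPKM + 1), 1598 of them lower. On log2(FPKM + 0.1) 14550 were called, 1638 of them lower. Leaving out 1 library, all 6 stayed called, where 8525 to 9714 of all tested genes were called. Replicate numbers did not pair the libraries (correlations of same-numbered libraries 0.01, -0.05 and -0.10), and the replicate block gave 9273 called genes against 10519. Of the storage regulators 4 were called with library totals and in both limma fits, against 2 with TMM factors. Of all tested genes 59.5% were called with library totals and 47.3% with TMM factors. Adding floury2, floury4 and Kafirin PSKR2 Precursor, alpha-zein genes with other descriptions and a choice made after seeing the data, to the zein counts moved the difference in the share of the 16-kDa gamma gene to -11.4 percentage points, against -12.5. The gamma genes then held 41.0% in nacRNAi and 41.2% in wild type, with overlap as before. Signs turned for NAC128, at 0.35 with library totals, 0.54 on log2(FPKM + 1) and 0.55 on log2(FPKM + 0.1). On log2(FPKM + 1) and log2(FPKM + 0.1), Peroxisomal membrane protein 11C turned to 0.057 and 0.057, the NADH dehydrogenase subunit to 0.42 and 0.42, and soluble diacylglycerol acyltransferase to 0.10 and 0.12. The cause was not tested. Opaque2 heterodimerizing protein 1 and naked endosperm2, not called in any of these settings, also turned to positive values with library totals and on FPKM. FPKM shares and the FPKM ratio of the 16- to the 27-kDa gene were not run, since the 27-kDa gene is listed at 0 FPKM. The lowest count of any of the 6 genes in a library was 93411, so depth did not limit their values.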
